A study of Mus musculus with 2 samples.

Results

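Levels of 10 genes of the endoplasmic reticulum (ER) folding machinery and its stress response were measured by droplet single-cell RNA sequencing in melanocyte-lineage cells of mouse back skin, out of 32285 genes in both count matrices. The genes were chosen by name: Hspa5, Hsp90b1, Calr, Canx, Pdia3, Pdia4, Herpud1, Ddit3, Xbp1 and Atf4. All mice carried Dct-rtTA; tetO-H2B-GFP, in which a Dct promoter fragment drives a doxycycline-dependent activator and so puts a nuclear GFP label on melanoblasts, melanocyte stem cells (McSCs) and melanocytes, and GFP+ cells were sorted in both cases. The early anagen library (Activated McSC) was made from trypsin-separated epidermis of back skin, collected 4 days after depilation of 8-week-old mice fed doxycycline, when follicles were in anagen II. The bulb library (Differentiated Mc) was made from dissected bulbs of anagen VI follicles of 5-week-old mice, which were also fed doxycycline. Each library pooled the cells of 4 mice, so that there was 1 library per condition. Depilation, age, tissue dissociation and the Chromium kit (version 3 for early anagen, version 2 for bulb) all changed with the condition and cannot be told apart from it. With no replicate library no test was made, and every interval below is a 95% interval that covers counting error only.

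The ER is where membrane, secreted and melanosomal proteins fold. Hspa5 encodes BiP, the Hsp70-type chaperone of the lumen, and the lectins calnexin and calreticulin hold glycoproteins such as tyrosinase, the key enzyme of melanin synthesis, while disulfide isomerases pair their cysteines. When unfolded proteins build up, the sensors IRE1, PERK and ATF6 are released from BiP. IRE1 splices Xbp1 mRNA, PERK favours translation of Atf4, and XBP1 and ATF6 induce chaperone and degradation genes, while ATF4 induces amino acid genes and Ddit3, which encodes the death-promoting factor CHOP. Splicing of Xbp1 and translation of Atf4 were not measured here, since the libraries count the 3' ends of mRNA molecules.

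Upstream sequences are shown for the 5 genes in which a motif of these factors was found, because 4 of them are among the chaperones described next. All 10 genes had a window in the RefSeq promoter table (GRCm38.p6) that spans 250 bases before the transcription start and 50 after it. Exact matches to each of 4 motifs were sought on both strands, and a site that departs from the letters was not counted. The ER stress response element (ERSE, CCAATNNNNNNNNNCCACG) was present in 39 of 32851 windows, 0.119%. ERSE-II (ATTGGNCCACG) was in 12 windows, 0.0365%. The unfolded protein response element (UPRE, TGACGTGG) was in 222, 0.676%. The amino acid response element (AARE, TGATGCAA) was in 294, 0.895%. Windows on 1 chromosome, where none of the 10 genes lie, were left out of these counts and of those for the wider lists. No match of one of these motifs overlapped a match of another in the 10 windows. The 250 bases before the start are given 5' to 3' on the strand of the gene, with motif matches in capitals.
Hspa5: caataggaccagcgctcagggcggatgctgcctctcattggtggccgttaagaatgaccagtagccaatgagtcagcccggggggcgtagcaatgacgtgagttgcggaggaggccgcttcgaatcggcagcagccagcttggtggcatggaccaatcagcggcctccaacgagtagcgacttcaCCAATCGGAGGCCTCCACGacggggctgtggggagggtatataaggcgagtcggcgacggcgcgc
Hsp90b1: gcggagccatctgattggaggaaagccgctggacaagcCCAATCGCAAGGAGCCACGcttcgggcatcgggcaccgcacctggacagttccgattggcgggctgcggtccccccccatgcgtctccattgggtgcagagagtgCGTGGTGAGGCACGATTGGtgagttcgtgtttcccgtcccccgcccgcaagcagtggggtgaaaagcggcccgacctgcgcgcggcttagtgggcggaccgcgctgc
Calr: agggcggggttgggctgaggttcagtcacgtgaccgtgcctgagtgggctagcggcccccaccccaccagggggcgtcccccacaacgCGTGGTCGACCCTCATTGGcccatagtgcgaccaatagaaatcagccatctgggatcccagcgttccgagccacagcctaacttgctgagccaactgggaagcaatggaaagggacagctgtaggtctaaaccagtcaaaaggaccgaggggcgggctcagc
Canx: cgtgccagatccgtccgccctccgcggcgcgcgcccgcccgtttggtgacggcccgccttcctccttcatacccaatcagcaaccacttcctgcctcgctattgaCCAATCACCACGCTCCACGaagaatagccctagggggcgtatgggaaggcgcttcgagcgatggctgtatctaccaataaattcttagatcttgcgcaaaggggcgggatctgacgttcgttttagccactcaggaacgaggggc
Herpud1: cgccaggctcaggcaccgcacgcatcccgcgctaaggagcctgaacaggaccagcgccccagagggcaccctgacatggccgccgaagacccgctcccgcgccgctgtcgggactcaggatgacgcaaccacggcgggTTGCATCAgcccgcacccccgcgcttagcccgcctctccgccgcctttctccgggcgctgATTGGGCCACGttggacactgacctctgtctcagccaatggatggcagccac
The Hspa5 promoter (chr2:34771840-34772089, plus strand) held 1 ERSE at -65 to -47 from the start, and that of Canx (chr11:50325674-50325923, minus strand) held 1 at -145 to -127. The ERSE of Calr (chr8:84846932-84847181, minus strand) lay at -162 to -144 and was reversed. Hsp90b1 (chr10:86705445-86705694, minus strand) was the member with more than 1 exact ERSE match, at -212 to -194 and, reversed, at -107 to -89. Herpud1 (chr8:94386179-94386428, plus strand) held an ERSE-II at -52 to -42 and a reversed AARE at -112 to -105. None of these letters were in the windows of Pdia3, Pdia4, Ddit3, Xbp1 or Atf4, which says nothing about near matches or sites elsewhere. In the wider list of ER chaperones and folding enzymes, 7 of 19 genes with a window held an ERSE. These were the 4 members above (Hspa5, Hsp90b1, Calr and Canx) and Creld2, Dnajc3 and Pdia6. Among genes tied to ATF4 and the integrated stress response 4 of 21 held an AARE (Atf3, Chac1, Nupr1 and Slc7a11). A match is a description of sequence and not a bound site. Starts here are those of RefSeq, whereas the gene coordinates below are from GENCODE. In GENCODE, Hspa5 begins at 34771970 and, on the minus strand, Calr at 84846934 and Hsp90b1 at 86705509. Part of the bases shown for these genes thus lies inside the GENCODE gene, and for Hspa5 this part includes the ERSE.

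Cells were kept where they held at least 1 UMI (unique molecular identifier, a counted mRNA molecule) of Dct, fewer than 3 of Krt10 and Krt14 together, under 5% mitochondrial UMIs, and more than 10000 UMIs in early anagen or 5000 in bulb. This left 2785 early anagen cells with a median of 24528 UMIs (75718468 in all) and 3734 bulb cells with a median of 14286.5 (55883067 in all). Of barcodes past the UMI and mitochondrial limits, 80.4% were kept in early anagen (2785 of 3464) and 98.9% in bulb (3734 of 3774). The keratin limit took out 653 in early anagen and 27 in bulb. The part of this unequal loss in the ratios was not tested. No kept cell had a barcode in common between libraries. All 8 melanocyte markers were detected in both, and together they took 24638.5 UMIs per 1000000 UMIs (CPM) in early anagen and 67431.1 CPM in bulb. Against this, 8 epidermal markers summed to 32.22 and 36.04 CPM, fibroblast markers to 1.321 and 0.8231 CPM, immune markers to 3.856 and 7.587 CPM, endothelial markers to 0.2113 and 0.03579 CPM, and hair shaft markers to 0.2113 and 1.843 CPM. The melanocyte sum includes Dct (7799.4 CPM in early anagen and 15879.5 CPM in bulb), and the epidermal sum includes Krt10 and Krt14. Cells were kept by these genes, so part of the contrast was set by the filter. Immediate early and heat shock genes, which dissociation is known to raise, summed to 5349.5 CPM in early anagen and 3616.2 CPM in bulb.

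Bulb melanocytes held less mRNA of the 6 ER chaperones among the 10 genes and of Atf4, as CPM, than early anagen cells, and more of Xbp1. The difference was largest for Hsp90b1, 4.127-fold lower in bulb, followed by Atf4 at 2.412-fold lower. Past a 1.5-fold difference, 6 of the 10 genes were lower in bulb, 1 was higher and 3 lay between. Of the 8020 genes that reached 10 CPM in either library, 38.8% were lower and 26.5% higher past 1.5-fold. As bulb over early anagen, the 10 genes had a median log2 ratio of -0.91, and all genes one of -0.18. TMM scaling, which sets another reference level, placed the median of all genes at 0.18 and turned the split to 31.1% lower and 36.1% higher, so that ratios relative to the median of all genes are also given below.

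Among the lumenal chaperones, Hspa5 (BiP, ENSMUSG00000026864, chr2:34771970-34777547 in GRCm38) stood at 889.7 CPM in early anagen (883.0 to 896.4) and 445.7 CPM in bulb. The libraries were thus separated by a log2 ratio of -0.997 (interval -1.02 to -0.98), or -0.81 relative to all genes. Hsp90b1 (GRP94, the ER member of the Hsp90 family, ENSMUSG00000020048, chr10:86690209-86705509) was counted at 976.0 CPM in early anagen and at 236.5 CPM in bulb. Its log2 ratio of -2.05 (-2.07 to -2.02) placed it at percentile 11.8 of all genes, lower than any other member. In the annotation, 217 of its 4032 exonic bases overlapped small genes on the same strand, where its count is uncertain.

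The lectin chaperones differed in size of effect. Canx (calnexin, membrane-bound, ENSMUSG00000020368, chr11:50293961-50325673) was at 417.3 CPM in early anagen and 199.6 CPM in bulb, a log2 ratio of -1.06 (-1.10 to -1.03). Calr (calreticulin, its soluble relative, ENSMUSG00000003814, chr8:84841850-84846934) was at 855.8 and 596.4 CPM. Its log2 ratio of -0.52 (-0.54 to -0.50) did not reach 1.5-fold, and relative to all genes it was -0.34. Calr was thus the chaperone least different between libraries among the members.

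The disulfide isomerases lay close to Hspa5. Pdia3 (ERp57, which works with both lectins, ENSMUSG00000027248, chr2:121413775-121438687) was at 799.2 CPM in early anagen and 449.6 CPM in bulb, with a log2 ratio of -0.83 (-0.85 to -0.81) that shrank to -0.52, under 1.5-fold, with TMM scaling. Pdia4 (ERp72, ENSMUSG00000025823, chr6:47796141-47813430) was at 123.3 and 60.84 CPM, a log2 ratio of -1.02 (-1.08 to -0.96).

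The stress factors did not share 1 direction. Atf4, the transcription factor of the integrated stress response (ENSMUSG00000042406, chr15:80255184-80257541), stood at 186.4 CPM in early anagen and 77.29 CPM in bulb, a log2 ratio of -1.27 (-1.32 to -1.22). Xbp1, the substrate of IRE1 (ENSMUSG00000020484, chr11:5520659-5525893), was at 55.26 CPM in early anagen and 91.85 CPM in bulb, 1.662-fold higher, with a log2 ratio of 0.73 (0.67 to 0.79). This was the member highest among all genes, at percentile 77.4. Among cells with no UMI of Mki67 or Top2a in either library the Xbp1 ratio was 0.47 (0.40 to 0.54), and with a total that left out mitochondrial, ribosomal and pigmentation genes it was 0.57, both under 1.5-fold.

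Herpud1 and Ddit3 differed least. Herpud1, an ER membrane protein of the degradation pathway (ENSMUSG00000031770, chr8:94386438-94395377), was at 62.24 and 52.38 CPM, with a log2 ratio of -0.25 (-0.32 to -0.18) that was 0.06 with TMM scaling. Ddit3 (CHOP, ENSMUSG00000025408, chr10:127290774-127296288) was at 40.2 CPM in early anagen and 41.87 CPM in bulb, and its log2 ratio of 0.06 had an interval (-0.02 to 0.14) that included 0. Its sign depended on the setting, since it was -0.18 (-0.28 to -0.09) among cells with no UMI of Mki67 or Top2a and 0.39 with a mitochondrial limit of 3%. A second annotated Ddit3 entry, whose 105 exonic bases all lie within the first, held 0 UMIs. With the all-gene median subtracted, the log2 ratio was -1.86 for Hsp90b1, -0.88 for Canx, -0.65 for Pdia3 and -0.835 for Pdia4, against -1.09 for Atf4, 0.92 for Xbp1, -0.065 for Herpud1 and 0.24 for Ddit3. The plot of levels in both libraries shows these values beside those of epidermal cells.

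**Figure D1:**
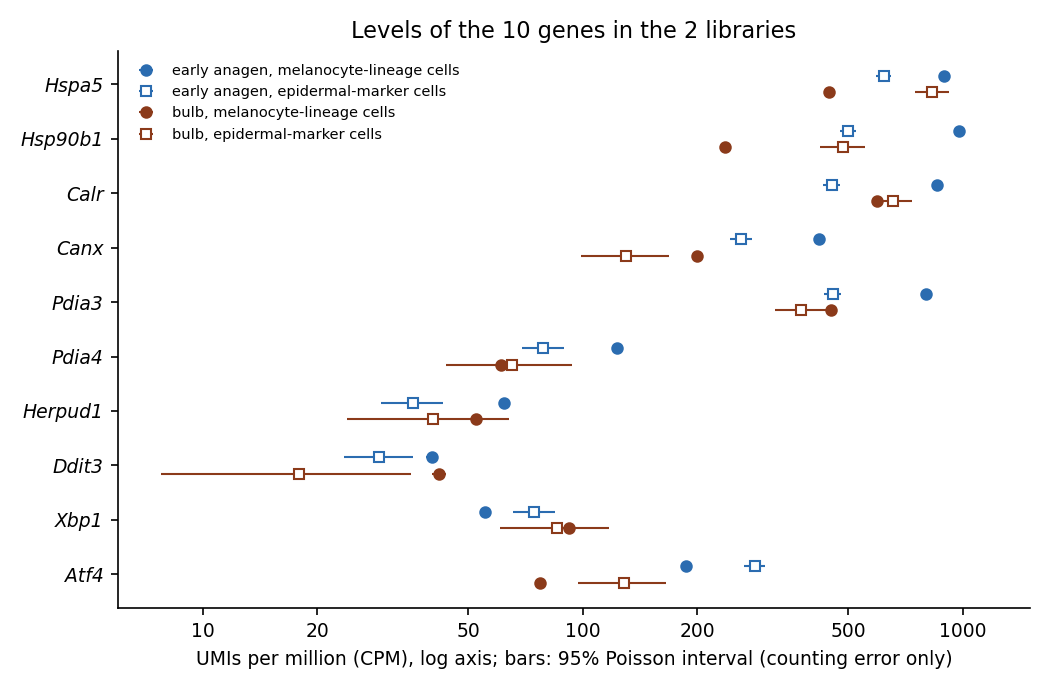
UMIs per 1000000 UMIs (CPM, log axis) of the 10 genes, with 95% Poisson intervals, in melanocyte-lineage cells (filled) and epidermal-marker cells (open) of the early anagen (blue) and bulb (brown) libraries. Filled blue points lie right of filled brown points for 8 genes, with Xbp1 and, narrowly, Ddit3 the other way round.

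**Figure D2:**
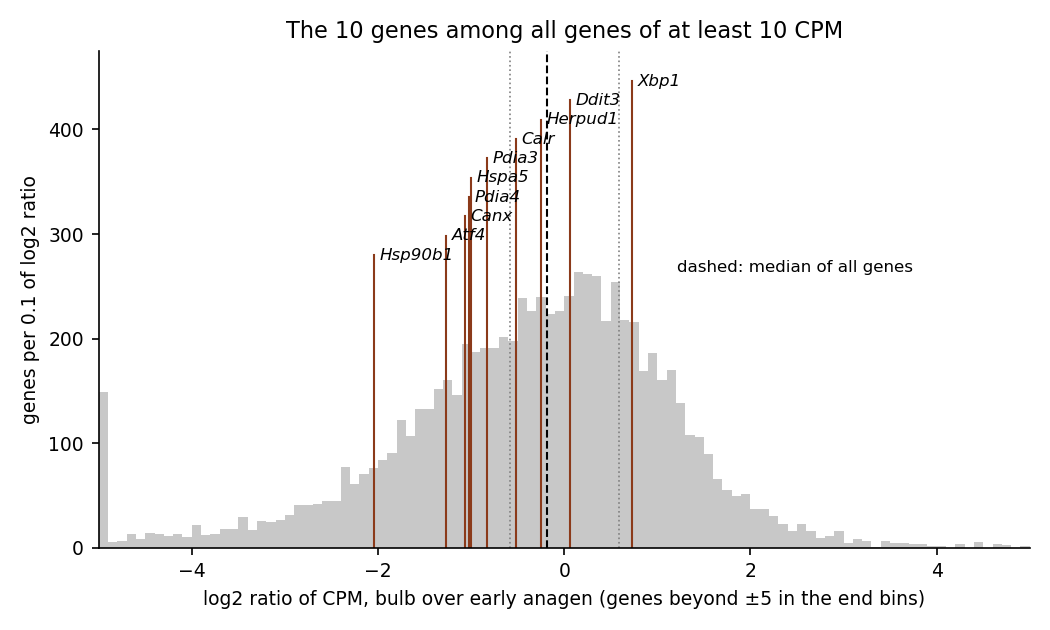
Number of genes per 0.1 of the log2 ratio of CPM, bulb over early anagen, for the 8020 genes of at least 10 CPM in either library; brown lines mark the 10 genes, the dashed line the median of all genes (-0.18) and the dotted lines 1.5-fold. Hsp90b1 lies farthest to the left at -2.05 and Xbp1 farthest to the right at 0.73, between percentiles 11.8 and 77.4 of all genes.

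In the cells on the lower side of their library's median for immediate early and heat shock genes, Hsp90b1 was at -2.07, Hspa5 at -1.03, Atf4 at -1.34 and Xbp1 at 0.74, and 6 members were lower past 1.5-fold. Each library was cut at its own median, so these sets were not matched in those genes. Over all kept cells Hspa1a, for example, was at 351.0 CPM in early anagen and 5.064 CPM in bulb. The part of dissociation in the ratios was not tested. No share of all genes is given for these lower-side cells, so the count of 6 members has no background beside it. When bulb cells were held to the same minimum of 10000 UMIs, Hspa5 was at -1.01 and Xbp1 at 0.72.

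Epidermal cells that had passed through both sorts gave a further view of the libraries. Epidermal-marker cells, which are quality-passing barcodes with more epidermal than melanocyte marker UMIs, numbered 82 in early anagen and 41 in bulb, where hair shaft markers also reached 2280.8 CPM in them, so that they need not be the same epidermal types. They were not made separate from the kept cells. In bulb 3774 barcodes passed the limits on UMIs and mitochondrial share and 3734 were kept, so the 2 sets overlap there. Hspa5 in these cells was at 618.7 CPM in early anagen and 829.2 CPM in bulb, a log2 ratio of 0.42 (0.26 to 0.58) and so of the opposite sign to that in melanocyte-lineage cells. Hsp90b1 was at 498.6 and 483.1 CPM, with a ratio of -0.05 (-0.26 to 0.16). Calr was at 452.2 and 656.2 CPM, a ratio of 0.54 (0.35 to 0.72). Canx, with a ratio of -1.004 (-1.41 to -0.62), Atf4, with -1.15 (-1.56 to -0.76), and Pdia3, with -0.28 (-0.52 to -0.04), were lower in the bulb library in both kinds of cell. In melanocyte-lineage cells Canx was at -1.06, Atf4 at -1.27 and Pdia3 at -0.83. The intervals of Pdia4 (-0.27), Herpud1 (0.18), Ddit3 (-0.70) and Xbp1 (0.20) included 0. The difference between the cell kinds was not tested.

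Shares of cells with a UMI were compared after each cell was thinned to 5000 UMIs. Hspa5 was detected in 93.79% of cells in early anagen (92.83 to 94.66) and in 83.8% in bulb (82.58 to 84.97). Hsp90b1 was detected in 95.04% and 66.34%, and Atf4 in 60.93% and 31.92%. These shares follow the levels, with Xbp1 again reversed, at 23.27% and 34.82%. Ddit3 was detected in 19.07% and 17.11%, and Herpud1 in 25.57% and 21.56%. Without thinning, Ddit3 was found in 55.83% and 41.11% of cells, which shows how far depth sets such a share. No cell type in these libraries is known to lack these genes, so that a background share could not be had; among epidermal-marker cells Ddit3 was detected in 17.07% (early anagen) and 9.756% (bulb), with median depths of 34055 and 10824 UMIs before thinning. Variance over mean at 5000 UMIs was largest for Hspa5, at 2.509 in early anagen and 1.802 in bulb, where 1 is the value for counting noise alone. This measure can rise with the mean count, so it does not rank the members by spread. Mean counts were 4.364 and 2.253 UMIs for Hspa5. For Ddit3 they were 0.2233 and 0.2081 UMIs, with variance over mean of 1.166 and 1.395. With the lowest and the highest 10% of cells set aside, Hspa5 ran from 1 to 9 UMIs around a median of 4 in early anagen, and from 0 to 5 around a median of 2 in bulb.

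Early anagen cells were next divided by Oca2, a melanosomal transporter gene. The study treats it as a late pigmentation gene that marks the most differentiated of these cells. In its account, most of the other early anagen cells had also begun to raise pigmentation genes. After thinning to 10000 UMIs, 288 cells (10.34%) held an Oca2 UMI and 2497 did not, while 0 of 82 epidermal-marker cells did (exact binomial upper limit 4.399%). Oca2+ cells held somewhat more mRNA of the 6 chaperones. Calr stood at 1094.1 CPM in Oca2+ cells and at 799.3 CPM in the others, a log2 ratio of 0.45 (0.40 to 0.51). Hspa5 was at 1095.1 and 835.6 CPM, a ratio of 0.39 (0.34 to 0.44). Pdia3 gave 0.30, Pdia4 0.27, Hsp90b1 0.22 and Canx 0.15, and the intervals of all 6 chaperones lay above 0. None of the 10 genes passed 1.5-fold in either direction, where 5.92% of 7789 genes were higher and 6.1% lower. The median ratio was 0.24 for the 10 genes and 0.02 for all genes. With at least 2 Oca2 UMIs required, Calr reached 0.61, past 1.5-fold. With another random thinning Hspa5 was at 0.46 (0.41 to 0.51), a value outside its first interval.

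Xbp1 was the stress factor that lay with the chaperones, at 73.26 CPM with Oca2 and at 57.03 CPM without, a ratio of 0.36 (0.15 to 0.57). Atf4 gave -0.12 (-0.25 to 0.01), Ddit3 0.10 (-0.17 to 0.37) and Herpud1 -0.06 (-0.29 to 0.16), so that no difference was detectable for these 3 at this depth. With all UMIs of each cell the intervals of Atf4, at -0.17 (-0.236 to -0.107), and Herpud1, at 0.11 (0.0045 to 0.214), excluded 0. That of Ddit3, at 0.045 (-0.089 to 0.177), did not. For these values the division was also read from all UMIs, so deeper cells were more apt to count as Oca2+. The part of depth in them was not tested. In the division after thinning, Oca2+ cells also held more melanocyte marker UMIs, 40802.4 against 23797.3 CPM. Their median depth before thinning was 27155 against 24211 UMIs. Dissociation genes were at 5482.6 and 5834.8 CPM. Among cycling cells alone the ratios of Canx (-0.04) and Xbp1 (-0.0068) lost their sign, from 74 Oca2+ cells, and those of Hspa5 (0.31) and Calr (0.30) kept theirs.

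Division by the cell cycle gave another pattern. Cells in which Mki67 or Top2a, genes of dividing cells, was counted numbered 1012 of 2785 in early anagen (36.34%) after thinning; since free RNA can add such a UMI, cycling below is only a name for this set. The chaperones other than Hsp90b1 were close to equal, and the 3 stress transcription factors were lower in cycling cells. Hsp90b1 was counted at 1019.8 CPM in cycling cells and at 863.2 CPM in the rest, a log2 ratio of 0.24 (0.20 to 0.28). Hspa5 was at 865.7 and 860.6 CPM, a ratio of 0.01 (-0.03 to 0.05). Calr gave -0.10 (-0.14 to -0.06), and Hsp90b1 was the member whose interval lay above 0, while those of 5 members lay below it.

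Xbp1 stood at 46.15 CPM in cycling cells and at 65.88 CPM in the rest, a ratio of -0.51 (-0.67 to -0.36), at percentile 4.85 of all genes. Ddit3 was at 34.49 and 47.83 CPM, a ratio of -0.47 (-0.66 to -0.29), at percentile 6.14. Atf4 was at 174.1 and 211.6 CPM, a ratio of -0.28 (-0.36 to -0.20). With another random thinning Xbp1 was at -0.51, Ddit3 at -0.31 (-0.48 to -0.13) and Atf4 at -0.19 (-0.27 to -0.11). The intervals do not cover the choice of thinning. None of the 10 genes passed 1.5-fold, where 8.68% of 7766 genes were higher and 3.36% lower. Cycling cells were deeper before thinning (median 34187 against 21066 UMIs) and held fewer dissociation UMIs (4965.7 against 6273.7 CPM); on the lower side of the median for those genes Ddit3 was at -0.51 and Xbp1 at -0.43. In 3 sets of cells of nearly equal size, from fewest to most UMIs before thinning, Ddit3 was at 53.71, 43.0 and 32.22 CPM and Atf4 at 233.5, 196.3 and 164.1 CPM, whereas Hspa5 ran the other way at 738.0, 925.1 and 924.4 CPM and Hsp90b1 at 745.0, 984.7 and 1030.7 CPM.

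With both divisions at once, the highest Hspa5 and Calr levels were in the 214 Oca2+ non-cycling cells (1109.8 and 1140.7 CPM). For Hspa5 the 74 Oca2+ cycling cells, at 1052.7 CPM, did not differ from these beyond counting error. The 1559 Oca2- non-cycling cells were lowest for Hspa5, at 826.4 CPM. Hsp90b1 was at 838.6 CPM in that last set and between 1015.4 and 1075.7 CPM in the other three. Xbp1 was at 82.71 CPM in Oca2+ non-cycling cells, 63.57 CPM in Oca2- non-cycling cells, and 46.16 and 45.95 CPM in Oca2- and Oca2+ cycling cells. The last pair did not differ beyond counting error.

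**Figure D3:**
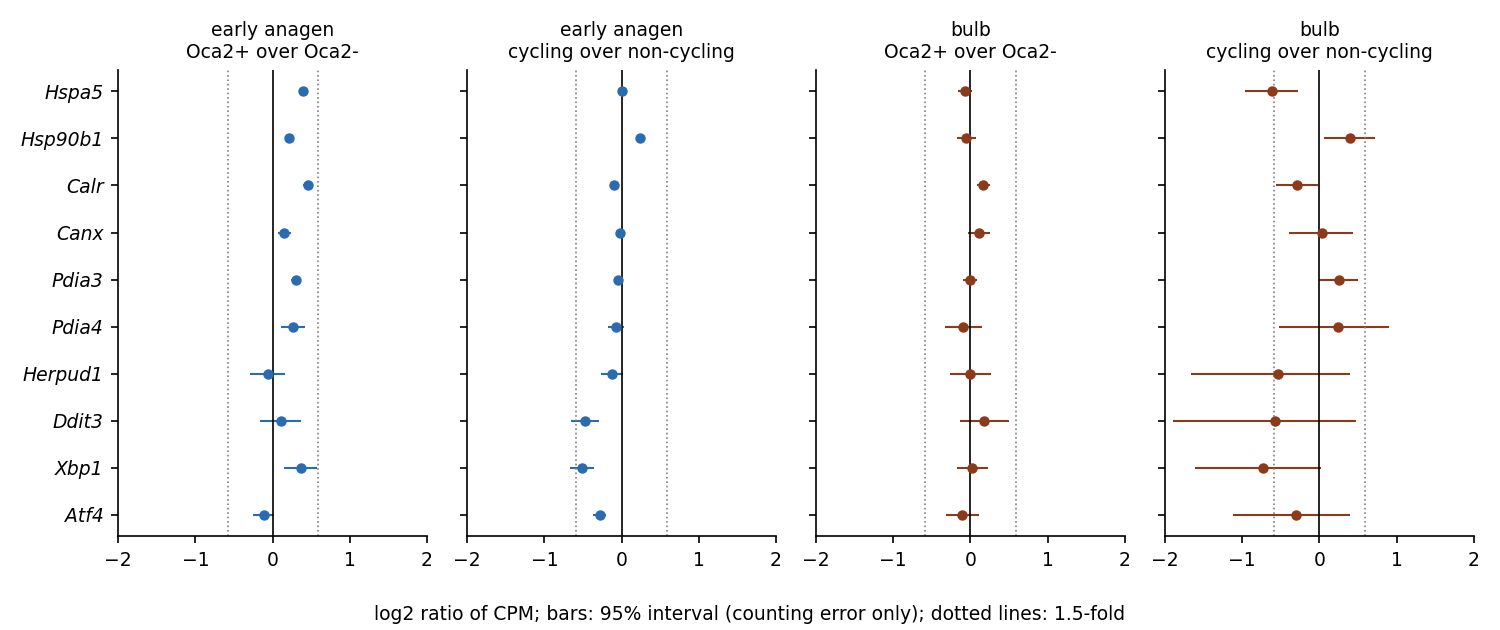
Log2 ratio of CPM with 95% counting intervals for the 10 genes in 4 divisions of cells within a library, after thinning; dotted lines mark 1.5-fold. In early anagen the 6 chaperones lie above 0 by Oca2, and Ddit3, Xbp1 and Atf4 below 0 by cycling; in bulb the intervals by Oca2 include 0 for 9 genes in this thinning, though not in another.

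In bulb, 3226 of 3734 cells (86.4%) held an Oca2 UMI after thinning to 5000 UMIs, and 0 of 41 epidermal-marker cells did (exact binomial upper limit 8.604%). Here the differences by Oca2 were small and varied with the thinning. Hspa5 stood at 447.3 CPM with Oca2 and at 471.3 CPM without, a ratio of -0.08 (-0.16 to 0.01). Calr was at 582.6 and 518.5 CPM, a ratio of 0.17 (0.08 to 0.25), and was the member whose interval excluded 0 in this thinning. With another random thinning the intervals of Hspa5 (-0.11), Hsp90b1 (-0.22), Canx (0.15) and Atf4 (-0.24) excluded 0 as well as that of Calr (0.24). With all UMIs of each cell Calr was at 0.37 and Canx at 0.21, while Hspa5 (-0.29), Hsp90b1 (-0.33), Pdia4 (-0.29), Herpud1 (-0.30) and Atf4 (-0.27) had intervals below 0. For these values the division was also read from all UMIs. That left fewer cells as Oca2-, and the Hspa5 interval was wider (-0.381 to -0.195). None passed 1.5-fold, where 1.26% of 6878 genes were higher and 4.65% lower. The 508 Oca2- cells held 183.9 CPM of epidermal markers against 19.84 CPM in Oca2+ cells, and the part of this in the ratios was not tested.

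Only 50 bulb cells (1.339%) held a UMI of either gene, so the counts were small. Of the 10 genes, 2 were lower past 1.5-fold and 0 higher, where 18.5% of 7362 genes were lower and 23.8% higher. Hspa5 was at 296.0 CPM in the cycling cells, from 74 UMIs, and at 452.7 CPM in the others, a ratio of -0.61 (-0.96 to -0.28). Xbp1, from 14 UMIs, gave -0.73 (-1.61 to 0.02). Hsp90b1 gave 0.40 (0.05 to 0.72). With another random thinning 5 members were lower and 1 higher, so that these counts are not firm. Hspa5 fell short of 1.5-fold with all UMIs of each cell used for the division and the levels, at -0.18 (-0.29 to -0.07). It also did so with no keratin UMI (-0.53), without the 10% of cells with most UMIs (-0.46) and as a mean of CPM per cell (-0.46). Whether the divisions by Oca2 or by cycling differ between libraries was not tested.

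Across single early anagen cells the 6 chaperones varied together. Over 2785 cells thinned to 10000 UMIs, the 15 correlations (Pearson r of log2 of 1 + UMIs) among Hspa5, Hsp90b1, Calr, Canx, Pdia3 and Pdia4 ran from 0.136 to 0.495, with a median of 0.3. A chaperone paired with a stress factor or Herpud1 gave a median of 0.0195, and the highest of these 24 values was 0.198, between Hspa5 and Xbp1. The 6 pairs among Herpud1, Ddit3, Xbp1 and Atf4 stayed at or under 0.0714. Atf4, with more UMIs (14113) than Pdia4 (9333), gave between -0.00079 and 0.0552 with the chaperones, where Pdia4 gave between 0.136 and 0.284 with the other chaperones. All these cells share a library, and sparse counts lower r. Levels also went with depth before thinning. The 6 chaperones were higher in the set of cells with most UMIs than in that with fewest (Pdia4 135.6 and 94.4 CPM). Atf4 was lower there (164.1 and 233.5 CPM). The part of this in r was not tested. In bulb, over 3734 cells thinned to 5000 UMIs, chaperone pairs ran from 0.0103 to 0.152. The lower depth and lower levels there do not allow the libraries' values to be compared.

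The genes most like Hspa5 in early anagen, out of 2820 genes of at least 50 CPM, were Hsp90b1 (r = 0.49), Calr (0.444), Manf (0.442), Pdia3 (0.428) and Pdia6 (0.422), against a median of 0.017. Manf encodes a secreted ER stress protein and Pdia6 a disulfide isomerase. In bulb they were Manf (0.153), Hsp90b1 (0.152), Pdia3 (0.149), Pdia6 (0.136) and Xbp1 (0.114), with 4 of the 5 names common to both. For Ddit3 the leading genes in early anagen included Ubb (0.151), Ifrd1 (0.143), Dnajb9 (0.132) and Gadd45b (0.131), and in bulb Atf4 (0.0727), H3f3b (0.0693), Csnk1d (0.0662), Foxn3 (0.0653) and Ier2 (0.0645). Values this weak in sparse counts are given without further reading.

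**Figure D4:**
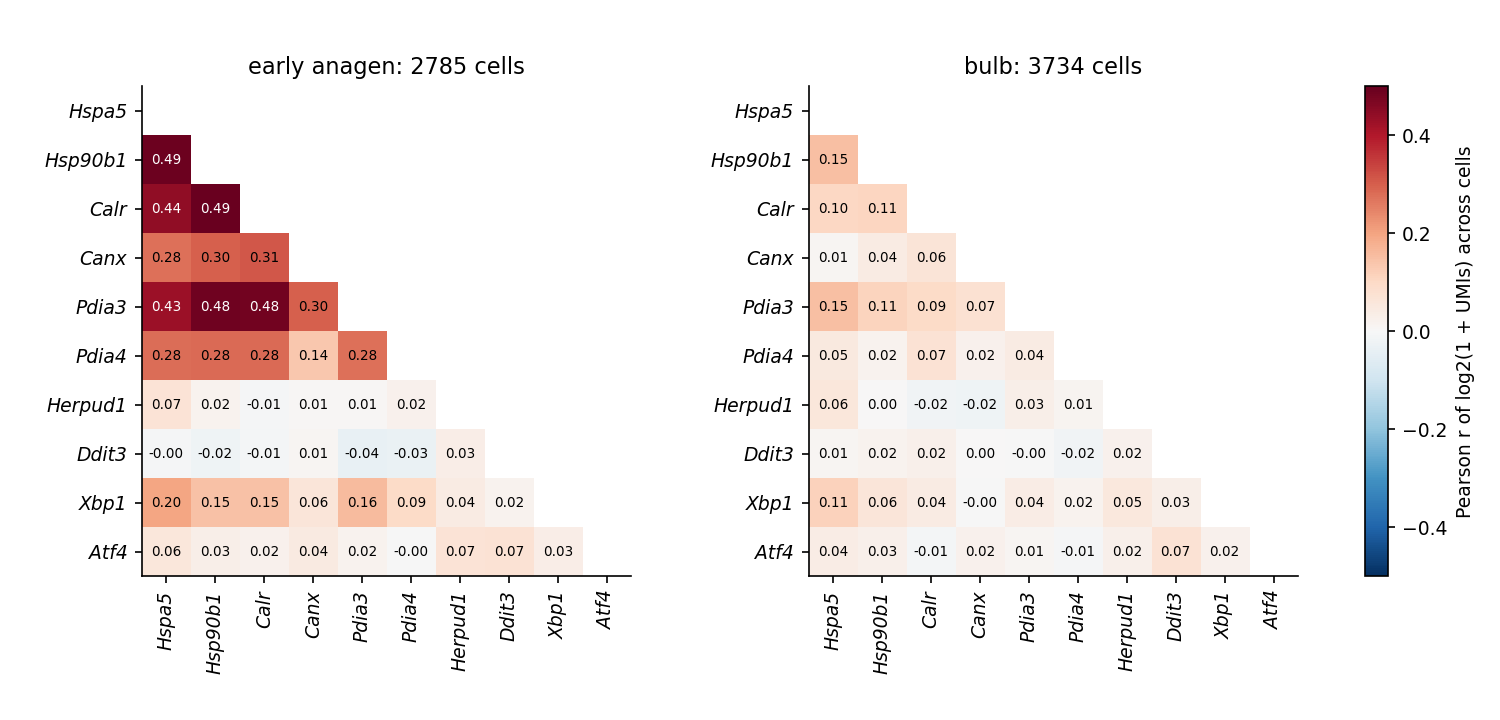
Pearson r of log2 of 1 + UMIs across cells for each pair of the 10 genes, in 2785 early anagen cells thinned to 10000 UMIs and 3734 bulb cells thinned to 5000 UMIs. In early anagen the block of 6 chaperones stands apart at 0.136 to 0.495 from the rows of Herpud1, Ddit3 and Atf4; the panels differ in depth and are not to be compared with each other.

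Wider lists of the same pathways, without the 10 genes, were set beside the bulb over early anagen ratios. Of 17 further ER chaperones and folding enzymes at or over 10 CPM, 3 were higher, 5 lower and 9 between, with a median log2 ratio of -0.46. Shares of all genes for reading this and the following counts are the 26.5% higher and 38.8% lower given above, and no list was tested. Hyou1, which recharges BiP, was at 34.28 CPM in early anagen and 3.006 CPM in bulb, a ratio of -3.51 (-3.75 to -3.29). P4hb, the founding disulfide isomerase, gave -1.74 and Uggt1, the glycoprotein folding sensor, -1.41. Ero1l, the oxidase that recharges disulfide isomerases, went the other way, at 39.38 and 178.4 CPM, a ratio of 2.18 (2.12 to 2.24), followed by Tmx1 (0.81) and Sil1 (0.69). The 5 of 17 that were lower do not exceed the 38.8% of all genes. Lower levels in bulb past 1.5-fold were therefore not shared by most of these further genes.

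Of 14 genes of ER-associated degradation, 6 were higher in bulb, 1 lower and 7 between, with a median of 0.39, where 26.5% of all genes were higher and 38.8% lower. Derl1, a channel protein of this pathway, was at 131.3 CPM in early anagen and 520.5 CPM in bulb, a ratio of 1.99 (1.95 to 2.02), with Derl2 at 1.68 and the mannose-trimming factor Edem2 at 1.23. Its relative Edem3 was the lower one, at -1.19. For the translocon and N-glycosylation, 5 of 21 genes were higher, 3 lower and 13 between (median 0.15), which for the higher genes is near the 26.5% of all genes. Sec11c, a signal peptidase subunit, led at 1.498, with Rpn2 at 1.10 and Spcs1 at 0.95, and Ssr3 (-1.74), Sec63 (-0.98) and Stt3b (-0.68) were lower.

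The sensors and the ATF4 branch were split. Of 9 stress sensors and transducers besides Xbp1, 1 was higher and 3 lower. Atf6, the sensor cleaved in the Golgi, was at 24.96 CPM in early anagen and 5.44 CPM in bulb, a ratio of -2.20, while its relative Atf6b was at 26.31 and 56.15 CPM, a ratio of 1.09. Eif2ak2 (PKR) gave -1.82 and Eif2ak3 (PERK) -0.96, from 335 UMIs in bulb. Of 16 genes tied to ATF4 and the integrated stress response, 4 were higher and 9 lower, with a median of -0.71. The transcription factor gene Cebpb (48.65 and 1.127 CPM, a ratio of -5.43), Phgdh of serine synthesis (-5.31) and Atf3 (-3.32) were lower.

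Amino acid transporters of the same list stood opposite. Slc3a2, the shared heavy chain of these carriers, was at 368.0 CPM in early anagen and 2288.9 CPM in bulb, a ratio of 2.64 (2.62 to 2.66). Its partners Slc7a5, a carrier of large neutral amino acids, and Slc7a11, the cystine carrier, gave 2.14 and 2.13. Within early anagen, Slc7a5 (1.12) and Slc3a2 (0.87) were also the genes of this list highest in Oca2+ over Oca2- cells, and Mthfd2 (-0.98), Atf5 (-0.92, from 22 UMIs) and Atf3 (-0.80) the lowest, with 2 higher and 4 lower of 15, where 5.92% of all genes were higher and 6.1% lower. In the same comparison the chaperone list had 2 of 17 higher, Sdf2l1 (0.66) and Dnajc3 (0.62), and 0 lower. Selenos (0.77) and Syvn1 (0.62) of the degradation list and Sec11c (0.78) of the translocon list were higher, and Atf6 (-0.61) was lower.

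Cycling over non-cycling early anagen cells gave no chaperone, degradation, sensor or translocon gene past 1.5-fold. Of 15 genes tied to ATF4, 3 were higher, all enzymes of serine and one-carbon metabolism: Phgdh (1.48), Mthfd2 (1.20) and Psat1 (0.64). Of all genes in that comparison 8.68% were higher and 3.36% lower. In bulb by Oca2, Slc7a11 (-0.84) and Sesn2 (-0.70, from 32 and 125 UMIs) were lower and Atf3 (0.73) higher. Dissociation genes, the list kept for comparison, had 8 of 14 lower in bulb and 1 higher, Fos at 0.78. Among the lower were Hspb1 at -3.69, Hspa1b and Hspa1a (351.0 CPM of Hspa1a in early anagen and 5.064 CPM in bulb). Hspa1b and Hspa1a are near-identical copies, so their separate counts are uncertain.

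**Figure D5:**
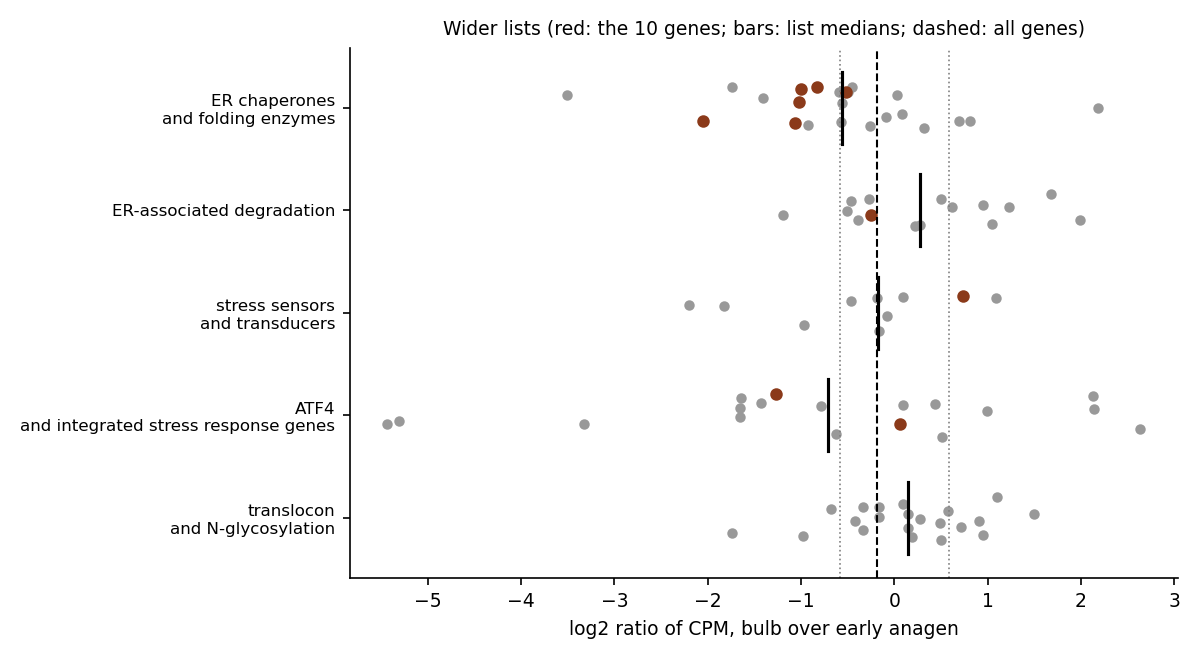
Log2 ratio of CPM, bulb over early anagen, of each gene of at least 10 CPM in 5 lists; brown points are the 10 genes, grey points the further genes of a list, black bars list medians, the dashed line the median of all genes and dotted lines 1.5-fold. The degradation list lies to the right of the median of all genes (0.27 with Herpud1) and the chaperone list to its left (-0.56 with the 6 members).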

How the data were processed

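Single-cell RNA-seq was performed by the authors on GFP+ cells sorted from Dct-rtTA; tetO-H2B-GFP mice, 1 library per condition. Per the labels, reads were processed with Cell Ranger 6.0.1 on mm10. The deposited matrices hold raw UMI counts per gene and barcode, with mitochondrial genes included and no normalization. From these counts CPM were computed per set of cells. The filters on UMIs and mitochondrial share follow the study's methods, and the Dct and keratin limits were added; no doublet caller was run, and leaving out the 10% of cells with most UMIs was an alternative. Cells were thinned without replacement to 10000 (early anagen) or 5000 UMIs (bulb) for divisions by Oca2 and by Mki67 plus Top2a, with both the division and the levels read after thinning. In the alternative with all UMIs of each cell, both were read without thinning, so that depth also set the group of a cell.

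Levels have exact Poisson intervals, ratios exact conditional binomial intervals and shares Clopper-Pearson intervals, all at 95%. The ratios and their intervals were checked on simulated Poisson counts, the model they assume. That check cannot show how they behave where counts vary between cells beyond counting noise. A gene was called past 1.5-fold among those of at least 10 CPM in either set. Members and lists were chosen with earlier results of these data known. Named genes of wider lists are the up to 3 per direction with the largest ratio past 1.5-fold, and for Hspa5 and Ddit3 the 5 genes of at least 50 CPM with the largest r. One marker list and 1 gene named by the rule on r are not reported here. Of the hair shaft list, Krt85 was not found under that name. TMM factors came from edgeR 4.0.16 in R 4.3.3; other steps used Python 3.11.15, numpy 2.4.6 and scipy 1.17.1. No coordinates were converted, since the GENCODE and RefSeq tables and the files share the GRCm38 build.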

Additional observations from a re-analysis of the deposited data

How the results depend on the processing

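With 1 library per condition the spread between mice is unknown, and the results describe these 2 libraries only. No paired analysis was possible because neither condition has a replicate. For bulb over early anagen, Hspa5, Hsp90b1, Canx, Pdia4 and Atf4 stayed lower past 1.5-fold in 14 of 14 alternatives other than the 2-fold limit, with Hsp90b1 between -2.20 and -1.73 and Hspa5 between -1.16 and -0.68. The count of lower members ran from 4 (2-fold) to 7 (total without mitochondrial, ribosomal and pigmentation genes). With the latter, 43.2% of all genes were lower and 22.3% higher past 1.5-fold, so the whole distribution moved too. Shares of all genes are not given for 2-fold or for the alternatives of the other comparisons. Those counts have no background to be read against. The single higher member, Xbp1, left 0 with that reduced total, with cells free of Mki67 and Top2a UMIs, and with 2-fold. Herpud1 was reversed at 0.064 by TMM scaling. For Oca2 in early anagen, at least 2 UMIs gave 1 higher member, and among cycling cells Canx was -0.041 and Xbp1 -0.0068. For cycling in early anagen, at least 2 UMIs, only cells with an Oca2 UMI, and no keratin UMI each gave 1 lower member, and a second random thinning put Pdia3 at 0.0015. For Oca2 in bulb, the 50 cycling cells alone gave 3 higher and 1 lower. For cycling in bulb, the 2 lower members became 4 (no Oca2 UMI, or the median of all genes set to 0), 1 (no keratin UMI, or cells lower in dissociation genes), 5 (second random thinning) or 0 (2-fold), and 0 higher became 1 (Oca2 UMI, or second random thinning) or 2 (without the 10% of cells with most UMIs). The cause of these shifts was not tested.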
